A study of Rattus norvegicus with 15 samples.

Results

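The tumour necrosis factor (TNF) superfamily of ligands and receptors was followed through rat kidneys that were transplanted or left in place. Its members were taken as the genes whose single symbol on the array begins with Tnfsf or Tnfrsf, together with Tnf, Lta, Ltb, Ltbr, Fas, Faslg, Cd40, Cd40lg, Eda and Ngfr. This gave 30 genes, 12 ligands and 18 receptors, on 37 probe sets, out of 14217 genes with a single symbol and 31042 probe sets on the array. For the 6 genes with more than 1 probe set, the one with the highest mean log2 signal over all arrays stands for the gene. Cd27, Cd70 and Edar were not analysed here.

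The acute group (aTX) held 5 kidneys of Lewis-Brown-Norway (LBN) rats grafted into Lewis rats, an allogeneic combination that leads to acute rejection. The syngeneic group (sTX) held 5 LBN kidneys grafted into LBN rats, which undergo the operation without a foreign graft. The control group (ctr) held 5 native, untreated LBN kidneys, which the series description calls the second kidneys of the donors, so that a control and a graft can come from the same animal. All animals were male and aged 10 to 12 weeks, recipients lost both of their own kidneys at the operation, and grafts were removed on day 4. These strains follow the methods and the series description. The source names of the samples differ, giving Lewis donors for both kinds of graft, with Lewis recipients in the syngeneic and LBN recipients in the acute group. If the source names were right, strain and group could not be told apart. A treatment field also calls sTX 4 and sTX 5 allogeneic, against their titles and source names. They were kept as syngeneic, and the calls of members without them are given where they change.

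Ligands of this superfamily are trimeric proteins, most of them anchored in the membrane of immune cells, and their receptors pass the signal on through adaptor proteins of the TRAF family or through death domains. TRAF-coupled receptors such as Cd40 and Tnfrsf4 act as co-stimulators of lymphocytes and antigen-presenting cells through NF-kappaB, whereas receptors with a death domain such as Fas and Tnfrsf1a can also trigger apoptosis or necroptosis. In the kidney both tubular and infiltrating cells carry such receptors, and several members are shed or secreted as soluble decoys.

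Each kidney was hybridized to its own array, and the values below are signal intensities as the authors deposited them, on a linear scale in which the trimmed mean of every array is 100. Median signals ran from 26.2 to 27.2 in aTX, from 28.8 to 30.0 in sTX and from 24.3 to 26.8 in ctr. Signals of different probe sets are not comparable as amounts of RNA, so all comparisons are within a gene. Arrays were assigned to 2 groups, called fluidics runs here, by whether the hybridization entry of the instrument records fell in the morning or the afternoon. No run number was read. The date of that entry was not used either, so a run here is an inferred half-day and not a recorded batch. The first run held all ctr arrays and aTX 2, 3 and 4, the second all sTX arrays and aTX 1 and 5. No run held both sTX and ctr, so that in their direct comparison run and operation cannot be told apart. With the run as a block, that comparison rests on the acute grafts of both runs and on an equal run effect in every group. As a check of RNA integrity, the ratio of the 3' to the 5' probe set of Gapdh was 1.01 to 1.07 in aTX, 1.07 to 1.13 in sTX and 1.13 to 1.25 in ctr. For beta-actin it was 1.14 to 1.29 in aTX, 1.45 to 1.61 in sTX and 1.54 to 1.98 in ctr, so that all acute grafts lay below all other kidneys, and the part of this difference in the results was not tested.

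More members of the superfamily rose than fell after allogeneic transplantation, among ligands and receptors alike. Of the 30 genes 18 were higher and 3 lower in aTX than in ctr at an adjusted p below 0.05 (limma, Benjamini-Hochberg over all 31042 probe sets). That is 60% higher and 10.0% lower, where 27.7% of all genes were higher and 27.7% lower, and 20.2% of all probe sets were higher and 22.2% lower. The median log2 change was 1.40 over the members and -0.03 over all genes. Higher calls came from 8 of 12 ligands and 10 of 18 receptors, lower calls from 1 ligand and 2 receptors. In a whole kidney, more cells of a type and more RNA per cell cannot be told apart.

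Syngeneic grafts also differed from controls in some members. In sTX 10 members were higher and 3 lower than in ctr, which is 33.3% and 10.0%, with 16.1% of all genes higher and 8.86% lower (11.4% and 6.32% of all probe sets). Of the 12 ligands 3 were called higher, and of the 18 receptors 7 higher and 3 lower. The median log2 change was 0.32 over the members and 0.08 over all genes. With the fluidics run as a block in the fit 0 members were called higher and 2 lower (Tnfrsf11b and Tnfrsf21), with 713 and 255 calls over all probe sets, so the other sTX calls below hold for the fit without the run. Without sTX 4 and 5, 9 members were called higher and 3 lower: Ltbr, Tnfrsf9 and Tnfsf4 lost their call, and Tnfrsf26 and Tnfsf10 gained one. With each array centred on its median 8 members were higher and 4 lower, and over all probe sets 1812 higher and 4724 lower in place of 3539 and 1961, with a median over the array of -0.11 in place of 0.09 on the log2 scale.

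Set directly against syngeneic grafts, acute grafts had 15 members higher and 3 lower, or 50% and 10.0%, where 19.8% of all genes were higher and 28.4% lower (13.9% and 22.1% of all probe sets). The median log2 difference was 0.95 over the members and -0.13 over all genes. With each array centred on its median 16 members were higher and 0 lower, and over all probe sets 5427 higher and 5242 lower in place of 4327 and 6857, with a median of -0.06 in place of -0.18. The 3 lower calls (Tnfrsf21, Tnfsf12 and Tnfsf13) were also all lost with the fluidics run as a block, and those of Tnfrsf21 and Tnfsf13 without sTX 4 and 5, which also ended the higher call of Tnfsf9. Both graft groups were compared with the same controls, so the 3 comparisons are not independent. In 16 of the 30 genes the geometric means fell in the order aTX, sTX, ctr from high to low, and in 4 genes (Tnfrsf11b, Tnfrsf21, Tnfrsf25 and Tnfsf13) in the opposite order.

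**Figure D1:**
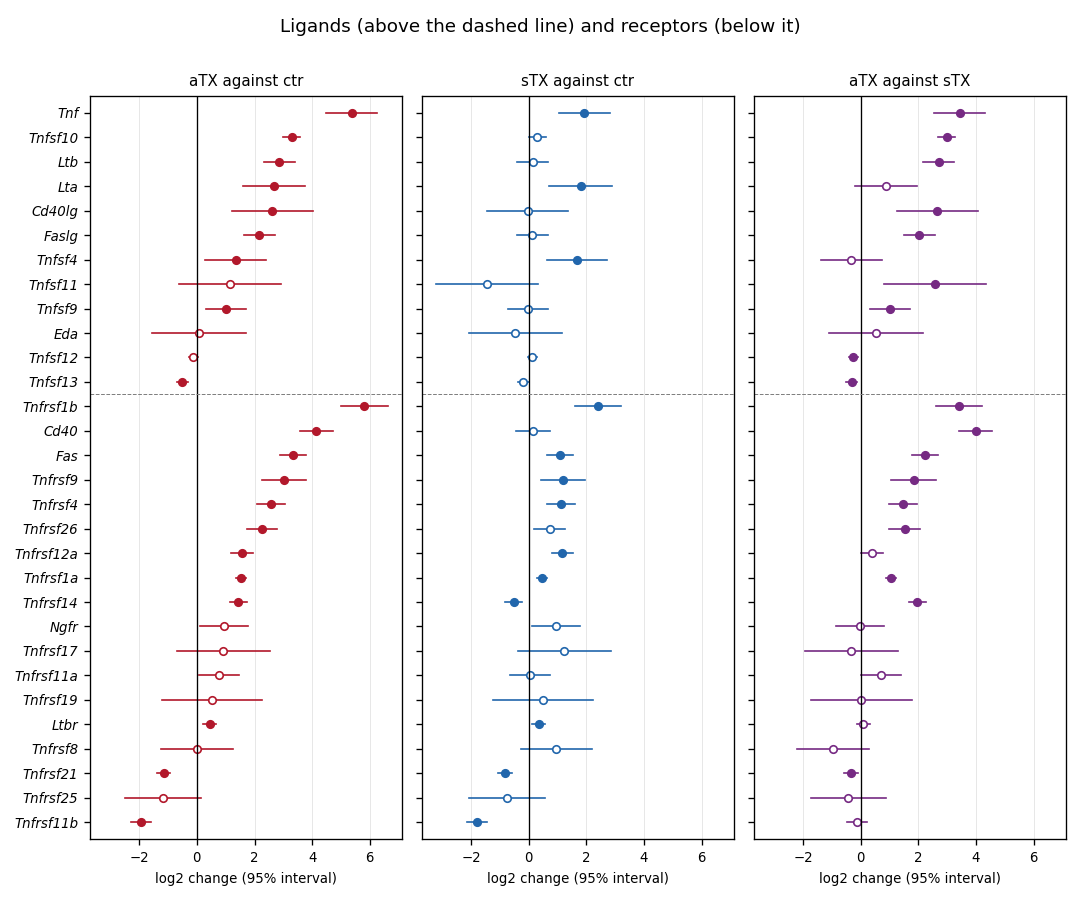
The log2 change of each member in 3 comparisons, with its 95% interval as a line, for 12 ligands above the dashed line and 18 receptors below it. Filled points passed an adjusted p below 0.05 and open points did not. Most filled points of aTX against ctr lie right of 0, with Tnfrsf1b at 5.81 and Tnf at 5.37 (2.56 and 2.73 with 16 added to every signal, below Cd40 at 3.32), while Tnfrsf11b at -1.93 lies farthest to the left among them.

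Tnf, the cytokine that gives the family its name and a product of activated macrophages and T cells, and both of its receptors rose in acute grafts. Tnf signals in replicates 1 to 5 were 95.5, 146, 118.5, 93 and 105.4 in aTX, 13, 4.5, 10.3, 19.8 and 9.2 in sTX and 1.9, 4.3, 5.8, 2.6 and 1.1 in ctr. Every acute graft lay far above every other kidney, and the lowest syngeneic graft, sTX 2, lay among the controls. Tnf was 41.3-fold higher in aTX than in ctr (log2 change 5.37 ± 0.42 SE, adjusted p = 1.55e-09) and 10.8-fold higher than in sTX (adjusted p = 1.47e-06). In sTX it was 3.82-fold higher than in ctr (adjusted p = 0.00256), a call the second probe set of Tnf did not give. That probe set ran from 28.9 to 54.1 in aTX, from 2.6 to 8.6 in sTX and from 1.3 to 3.0 in ctr. Folds of this size against signals near background depend on the scale: with 16 added to every signal before the logarithm the log2 change of Tnf in aTX against ctr was 2.73.

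Tnfrsf1b, the TNF receptor without a death domain that is typical of immune cells, rose in both kinds of graft. From replicate 1 to 5, Tnfrsf1b measured 99.1, 98.8, 81.7, 87.3 and 78.8 in aTX, 15, 7.4, 6.6, 11 and 5.1 in sTX and 2.8, 0.8, 1, 1.7 and 2.6 in ctr. The groups did not overlap, and all controls were close to background. It was 56.1-fold higher in aTX than in ctr (log2 change 5.81 ± 0.39 SE, adjusted p = 1.49e-10) without an offset, the largest fold of the members, over controls near background. With 16 added to the signals its log2 change was 2.56, below those of Cd40 (3.32), Tnfsf10 (3.10) and Tnf (2.73). In sTX it was 5.29-fold higher than in ctr (adjusted p = 0.000166), and the acute grafts were 10.6-fold above the syngeneic ones (adjusted p = 5.89e-07). With the fluidics run as a block the sTX change kept its size at 5.33-fold with an adjusted p of 0.0694.

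Tnfrsf1a, the widely expressed TNF receptor that carries a death domain, changed less but with little spread. In the same replicate order, Tnfrsf1a had signals of 778.5, 663.3, 665.5, 710.2 and 696.5 in aTX, 432.5, 328.5, 320.9, 327.3 and 293 in sTX and 241.7, 235.9, 243.2, 244.9 and 249.6 in ctr. Controls lay within a narrow band, every syngeneic graft lay above them, with sTX 1 the highest, and every acute graft lay higher again. The gene was 2.89-fold higher in aTX than in ctr (log2 change 1.53 ± 0.08 SE, adjusted p = 7.24e-12). It was 1.39-fold higher in sTX than in ctr (adjusted p = 0.000373) and 2.08-fold higher in aTX than in sTX (adjusted p = 3.64e-09).

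Lymphotoxins, which lie beside Tnf on chromosome 20 in the order Lta, Tnf, Ltb in the GRCr8 annotation, rose as well in acute grafts. Ltb, the membrane-bound partner that lets lymphotoxin bind its own receptor, was clearly measured. The 5 acute grafts had Ltb signals of 136.8, 203.3, 163.8, 137.8 and 141.2, the 5 syngeneic grafts 33, 33.7, 17.7, 13 and 28.6 and the 5 controls 20.2, 23.5, 35, 13.4 and 20.2. Acute grafts stood apart from all other kidneys, while syngeneic grafts and controls overlapped. Ltb was 7.23-fold higher in aTX than in ctr (log2 change 2.85 ± 0.26 SE, adjusted p = 1.43e-08) and 6.56-fold higher than in sTX (adjusted p = 5.86e-08). The difference between sTX and ctr was 0.14 on the log2 scale, with a 95% interval of -0.40 to 0.68. Lta, the soluble lymphotoxin, stayed below the lowest median signal of any array (24.3) in all 15 kidneys. Its signals ran from 7.6 to 12.9 in aTX, from 4.3 to 8.8 in sTX and from 0.8 to 5.9 in ctr. It was called higher in aTX (log2 change 2.68, adjusted p = 0.000235) and in sTX (1.80, adjusted p = 0.0201) than in ctr, and leaving out sTX 1, ctr 2 or ctr 5 ended the second call. Its difference between aTX and sTX was called only with 16 added to the signals (0.29, adjusted p = 0.0191) and with the methods' t-test.

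The promoters of these 3 neighbouring genes are shown because all 3 were called higher in aTX than in ctr. Matches to NF-kappaB were sought because this factor, which TNF receptors activate, also acts on genes of the family. The part of NF-kappaB in these changes was not tested. Sequences are those of RefSeq for GRCr8, from 250 bases before to 50 bases after the annotated start, 5′ to 3′ on the strand of the gene, and capitals mark a match to the NF-kappaB consensus on either strand.
Lta, chr20:3623277-3623576, plus strand: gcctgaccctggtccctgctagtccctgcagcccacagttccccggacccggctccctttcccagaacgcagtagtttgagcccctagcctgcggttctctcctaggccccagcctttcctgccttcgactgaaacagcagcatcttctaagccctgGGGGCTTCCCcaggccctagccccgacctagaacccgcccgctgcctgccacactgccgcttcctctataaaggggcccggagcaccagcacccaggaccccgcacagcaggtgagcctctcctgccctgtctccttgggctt
Tnf, chr20:3626435-3626734, plus strand: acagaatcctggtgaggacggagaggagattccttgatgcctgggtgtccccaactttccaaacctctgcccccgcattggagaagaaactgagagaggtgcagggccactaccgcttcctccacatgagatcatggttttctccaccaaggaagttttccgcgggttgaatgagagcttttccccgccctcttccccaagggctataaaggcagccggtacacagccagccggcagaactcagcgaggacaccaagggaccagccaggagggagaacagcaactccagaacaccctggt
Ltb, chr20:3634005-3634304, minus strand: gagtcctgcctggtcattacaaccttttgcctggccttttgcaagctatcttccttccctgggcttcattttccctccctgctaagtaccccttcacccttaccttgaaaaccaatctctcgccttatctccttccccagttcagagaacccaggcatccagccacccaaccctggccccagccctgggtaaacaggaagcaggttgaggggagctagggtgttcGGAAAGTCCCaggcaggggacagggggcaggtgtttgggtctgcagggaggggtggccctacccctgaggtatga
Lta held a match that begins 93 bases before the start and Ltb one that begins 25 bases before it, and the window of Tnf held none. Sequence outside these windows was not searched. Of the 30 members 21 have a promoter in the table, and 3 of these 21 (Lta, Ltb and Tnfrsf8) held a match, compared with 4.16% of 27457 promoters of the same length. The GAS motif of STAT factors, TTCNNNGAA, was in the promoters of Lta, Ltb and Tnfrsf12a and in 8.68% of all promoters. The AP-1 motif, TGANTCA, was in those of Fas, Tnfrsf1b and Tnfrsf8 and in 7.33% of all. Both strands were searched, and 0 matches in the members overlapped a match to another motif. Tnfrsf8, which held both an NF-kappaB and an AP-1 match, passed no test in any comparison. Tnfrsf8 lies next to Tnfrsf1b on chromosome 5, and its log2 change in aTX against ctr was 0.00 with a 95% interval of -1.24 to 1.24.

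Ltbr, the receptor for membrane lymphotoxin on stromal and epithelial cells, changed little. Ltbr signals in replicates 1 to 5 were 315, 328.2, 236.2, 288.7 and 379.2 in aTX, 280.0, 245.7, 274.9, 343.5 and 291 in sTX and 231.6, 243.2, 241.1, 196.9 and 217.7 in ctr. All syngeneic grafts lay above all controls, and 1 acute graft, aTX 3, lay among the controls. It was 1.36-fold higher in aTX (adjusted p = 0.00223) and 1.27-fold higher in sTX (adjusted p = 0.0341) than in ctr, and the call in sTX was lost without sTX 1, 4 or 5 or ctr 1, 4 or 5. Its sTX change was 0.05 on the log2 scale with the fluidics run as a block.

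Tnfrsf14, the herpesvirus entry mediator that binds both Lta and the checkpoint receptor Btla, was the only member called in opposite directions in the 2 kinds of graft. From replicate 1 to 5, Tnfrsf14 measured 480.1, 422.5, 422.4, 534.2 and 446.2 in aTX, 110.0, 100.6, 123, 125.6 and 128.6 in sTX and 224.2, 182.3, 186.3, 111.7 and 160.8 in ctr. Acute grafts all lay above the controls, while sTX 1 and sTX 2 lay below all of them and the other 3 syngeneic grafts between the lowest control and the next. Tnfrsf14 was 2.72-fold higher in aTX than in ctr (log2 change 1.44 ± 0.13 SE, adjusted p = 2.03e-08) and 1.44-fold lower in sTX than in ctr (adjusted p = 0.0088). The direct difference between aTX and sTX was 3.92-fold (adjusted p = 4.84e-10). The fall in sTX kept its size with the fluidics run as a block (log2 change -0.55, adjusted p = 0.276) but not its call. It was also not called with the methods' t-test.

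Fas ligand and its receptor, a pair with which cytotoxic lymphocytes kill target cells, both rose in acute grafts. In the same replicate order, Faslg had signals of 43.7, 43.6, 58.4, 96.7 and 51.9 in aTX, 18.1, 11.5, 15.9, 12.3 and 11.8 in sTX and 13.3, 9.1, 18.5, 15.2 and 9 in ctr. Syngeneic grafts and controls overlapped, every acute graft lay above them, and aTX 4 was the highest. Faslg was 4.49-fold higher in aTX than in ctr (log2 change 2.17 ± 0.26 SE, adjusted p = 8.05e-07) and 4.10-fold higher than in sTX (adjusted p = 3e-06). The difference between sTX and ctr was 0.13 on the log2 scale (95% interval -0.42 to 0.68).

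The receptor Fas rose in acute grafts, and its rise in syngeneic grafts was called by its brightest probe set only. The 5 acute grafts had Fas signals of 142.9, 136.3, 143.6, 116.4 and 126.3, the 5 syngeneic grafts 41.7, 29.9, 24.2, 27.9 and 20.8 and the 5 controls 8.8, 9.7, 15.3, 18.2 and 16.7. The groups formed 3 separate steps. Fas was 10.1-fold higher in aTX than in ctr (log2 change 3.33 ± 0.21 SE, adjusted p = 7.6e-11), 2.13-fold higher in sTX than in ctr (adjusted p = 0.000983) and 4.72-fold higher in aTX than in sTX (adjusted p = 5.06e-08). Its other 2 probe sets were dimmer, and they differed. One ran from 19.5 to 27.4 in aTX, from 7.6 to 15 in sTX and from 4.8 to 11.4 in ctr and was called higher in aTX against both other groups. The dimmest ran from 5.0 to 10.4 in aTX, from 1.1 to 2.6 in sTX and from 1.8 to 11.8 in ctr. It was called in aTX against sTX but not in aTX against ctr. In sTX against ctr neither of the 2 was called. The log2 change there was 0.48 (adjusted p = 0.34) for the brighter of the 2. For the dimmest it was -1.42, in the opposite direction (adjusted p = 0.0623). The brightest probe set of Fas and the next are of a type whose probes match several transcripts.

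Tnfsf10 (TRAIL), a death ligand of activated lymphocytes and macrophages that interferons induce, had the smallest error among the large changes. Tnfsf10 signals in replicates 1 to 5 were 1069.2, 1077.4, 1171.2, 843 and 948.6 in aTX, 178.4, 163.5, 109.2, 109.6 and 99 in sTX and 84.7, 103.9, 106.9, 105 and 122.5 in ctr. The highest of the other 10 kidneys, sTX 1, lay far below the lowest acute graft. The rise was 9.77-fold over ctr (log2 change 3.29 ± 0.14 SE, adjusted p = 4.5e-13) and 7.92-fold over sTX (adjusted p = 4.92e-12). In sTX against ctr the log2 change was 0.30 (adjusted p = 0.17), with sTX 1 and sTX 2 above all controls and the other 3 among them. Without sTX 4 and 5 this change was 0.50 and was called (adjusted p = 0.027).

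Osteoprotegerin (Tnfrsf11b), a secreted decoy that binds both Tnfsf11 and Tnfsf10, fell by about the same amount in both kinds of graft. From replicate 1 to 5, Tnfrsf11b measured 44.2, 52.9, 54, 46.9 and 38.1 in aTX, 57, 45.8, 37.4, 55.6 and 67.6 in sTX and 177.8, 180.0, 256.6, 131.7 and 169.5 in ctr. All grafts lay far below all controls, and the 2 graft groups overlapped. Tnfrsf11b was 3.82-fold lower in aTX (log2 change -1.93 ± 0.17 SE, adjusted p = 6.75e-09) and 3.47-fold lower in sTX than in ctr (log2 change -1.79, adjusted p = 2.71e-07). The direct difference between aTX and sTX was -0.14 on the log2 scale, with a 95% interval of -0.49 to 0.21. In sTX the fall also passed with the fluidics run as a block (2.78-fold lower, adjusted p = 0.00624).

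Tnfrsf21, a death receptor of neurons and lymphocytes, also fell in both kinds of graft. In the same replicate order, Tnfrsf21 had signals of 215.5, 203.9, 205.5, 218.3 and 189.8 in aTX, 235.8, 235.2, 323.1, 269.9 and 242.8 in sTX and 541.6, 417.1, 407.1, 576.2 and 375.8 in ctr. Controls were the highest in every case, with ctr 1 and ctr 4 above the other 3, and syngeneic grafts lay between them and the acute grafts. It was 2.21-fold lower in aTX (adjusted p = 3.61e-08) and 1.76-fold lower in sTX (adjusted p = 2.68e-05) than in ctr, and its second probe set gave the same calls. The 1.26-fold lower level in aTX than in sTX (adjusted p = 0.0244) was lost without aTX 5, sTX 3 or sTX 4 and with each array centred on its median. Tnfrsf25, a death receptor of lymphocytes that binds Tnfsf15, ran from 0.9 to 8.2 in aTX, from 1.6 to 14.1 in sTX and from 6.0 to 13.4 in ctr and passed no test.

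**Figure D2:**
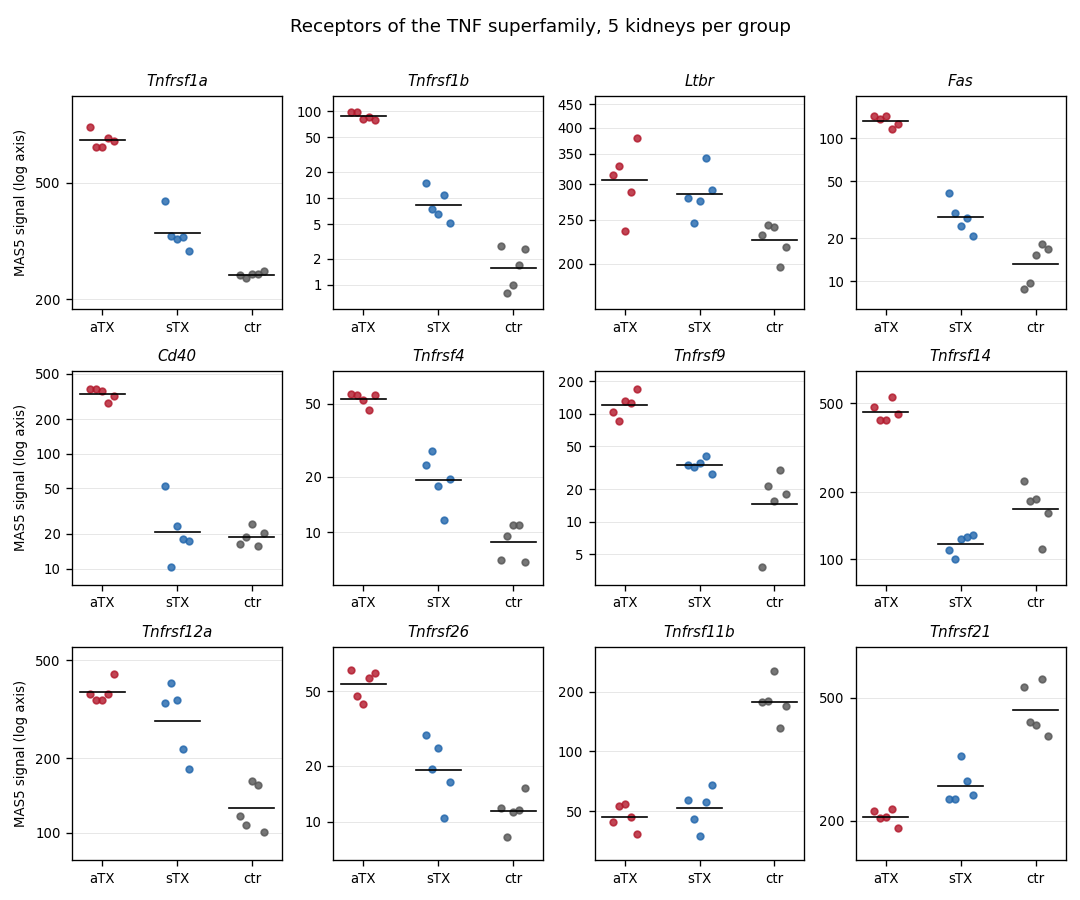
Signals of the 12 receptors called in any comparison, on a log axis, with 1 point per kidney and a line at the geometric mean of each group (aTX, sTX and ctr from left to right, 5 kidneys each). Acute grafts lie highest for Cd40 (278.3 to 366.0) and Tnfrsf14 (422.4 to 534.2), whereas for Tnfrsf11b and Tnfrsf21 the controls lie highest.

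Cd40, a co-stimulatory receptor of antigen-presenting and epithelial cells, rose strongly in acute grafts, and its change in syngeneic grafts passed no test. The 5 acute grafts had Cd40 signals of 364.7, 366, 349.7, 278.3 and 318.2, the 5 syngeneic grafts 51.9, 10.4, 23.6, 18.2 and 17.5 and the 5 controls 16.3, 18.8, 24.6, 15.7 and 20.3. Syngeneic grafts surrounded the controls, with sTX 1 above and sTX 2 below all of them, and the acute grafts lay far higher. Cd40 was 17.7-fold higher in aTX than in ctr (log2 change 4.14 ± 0.28 SE, adjusted p = 1.56e-10) and 15.9-fold higher than in sTX (adjusted p = 6.21e-10), the largest difference between the 2 kinds of graft in the family. The log2 change in sTX against ctr was 0.15, with a 95% interval of -0.43 to 0.73. Its ligand Cd40lg, carried by activated helper T cells, stayed below the lowest array median in all kidneys. Cd40lg ran from 14.5 to 20.6 in aTX, from 0.4 to 6.7 in sTX and from 0.8 to 5.6 in ctr. It was called higher in aTX than in ctr (log2 change 2.62, adjusted p = 0.00315) and than in sTX (2.66, adjusted p = 0.00345), and the second of these was 1.96 without sTX 4 and 1.65 (3.14-fold in place of 6.31-fold) without sTX 4 and 5. Within the second fluidics run alone the second call was lost (adjusted p = 0.0627).

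Tnfrsf4 (OX40), which prolongs the response of activated T cells, rose in both kinds of graft. Tnfrsf4 signals in replicates 1 to 5 were 56.4, 55.9, 52.3, 46.2 and 55.6 in aTX, 23.2, 27.6, 17.8, 11.7 and 19.5 in sTX and 7, 9.5, 10.9, 10.9 and 6.9 in ctr. No syngeneic graft reached the level of an acute graft, and sTX 4 was the only one near the controls. Tnfrsf4 was 6.0-fold higher in aTX than in ctr (log2 change 2.58 ± 0.23 SE, adjusted p = 1.35e-08), 2.17-fold higher in sTX than in ctr (adjusted p = 0.00196) and 2.77-fold higher in aTX than in sTX (adjusted p = 3.79e-05). Its ligand Tnfsf4 was dim, with signals from 5.3 to 9.9 in aTX, from 7.9 to 13.6 in sTX and from 0.7 to 6.2 in ctr. Tnfsf4 was called higher in aTX (log2 change 1.35, adjusted p = 0.0364) and in sTX (1.67, adjusted p = 0.0252) than in ctr, and both calls ended without single arrays (aTX 1, 3, 4 or 5 or ctr 2 or 4 for the first, sTX 2 for the second) and without sTX 4 and 5 together.

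Tnfrsf9, a receptor that activated cytotoxic T cells and NK cells display, followed the same order. From replicate 1 to 5, Tnfrsf9 measured 102.6, 85.1, 131, 124.8 and 170.0 in aTX, 33.3, 31.9, 34.9, 40.4 and 27.6 in sTX and 3.8, 21.4, 15.4, 29.9 and 17.9 in ctr. The acute grafts stood apart, and the syngeneic grafts overlapped the controls only at ctr 4. Tnfrsf9 was 8.16-fold higher in aTX than in ctr (log2 change 3.03 ± 0.37 SE, adjusted p = 8.83e-07) and 3.58-fold higher than in sTX (adjusted p = 0.000457). The 2.28-fold rise in sTX over ctr (adjusted p = 0.0302) was lost without sTX 1, 2, 3 or 4 and under both other scalings of the arrays. Its ligand Tnfsf9 ran from 17.3 to 26.9 in aTX, from 4.2 to 14.5 in sTX and from 6.9 to 13.5 in ctr. Tnfsf9 was 2.0-fold higher in aTX than in ctr (adjusted p = 0.0195) and 2.02-fold higher than in sTX (adjusted p = 0.0207). The first call was lost without aTX 5 or ctr 1, the second without aTX 5 or sTX 4, and both were lost with the fluidics run as a block. Without sTX 4 and 5 the second was 1.59-fold and not called (adjusted p = 0.108). Tnfrsf8 (CD30), another receptor of activated lymphocytes, ran from 1.8 to 5.1 in aTX, from 3.2 to 10.0 in sTX and from 1.4 to 9.4 in ctr.

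Tnfrsf12a (Fn14), the receptor for TWEAK that injured epithelium displays, rose in both kinds of graft, with no call between them. In the same replicate order, Tnfrsf12a had signals of 364.1, 345.6, 344.7, 364.9 and 438.7 in aTX, 335.5, 402.7, 344.9, 218.2 and 181 in sTX and 117.3, 107.7, 162.4, 155.5 and 100.4 in ctr. All grafts lay above all controls, but sTX 4 and sTX 5 were much lower than the other syngeneic grafts and near the upper controls. The gene was 2.93-fold higher in aTX (log2 change 1.55 ± 0.18 SE, adjusted p = 4.72e-07) and 2.25-fold higher in sTX (log2 change 1.17, adjusted p = 0.000108) than in ctr. The direct difference was 0.38 on the log2 scale, with a 95% interval of 0.01 to 0.76 (adjusted p = 0.111), and without sTX 4 and 5 it was 0.04 (adjusted p = 0.875). It was called at 0.50 with each array centred on its median (adjusted p = 0.0385) and at 0.51 without sTX 2 (adjusted p = 0.0304). TWEAK itself (Tnfsf12) ran from 148.5 to 169.5 in aTX, from 172.7 to 195.9 in sTX and from 151.7 to 191.1 in ctr. It was 1.19-fold lower in aTX than in sTX (log2 change -0.25, adjusted p = 0.00889), in a comparison whose median over all probe sets was -0.18. With each array centred on its median it was called in aTX against ctr instead (-0.20, adjusted p = 0.0394).

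APRIL (Tnfsf13), a survival factor for plasma cells that lies next to Tnfsf12 on chromosome 10, was the only ligand called lower in acute grafts than in controls. The 5 acute grafts had Tnfsf13 signals of 210.7, 218.4, 208.2, 182.1 and 190.3, the 5 syngeneic grafts 257.5, 245.9, 210.0, 274.7 and 262.2 and the 5 controls 259.1, 339, 255.8, 267.1 and 311.3. Every acute graft lay below every control, and syngeneic grafts overlapped both other groups. Tnfsf13 was 1.41-fold lower in aTX than in ctr (log2 change -0.50 ± 0.09 SE, adjusted p = 0.000114) and 1.24-fold lower than in sTX (adjusted p = 0.0109), and its second probe set gave the first call but not the second. Against ctr, sTX was called lower with each array centred on its median (-0.39, adjusted p = 0.00668) and by the second probe set (-0.28, adjusted p = 0.0458). Its receptor Tnfrsf17, a plasma cell marker, ran from 1.3 to 15.2 in aTX, from 2.0 to 15.5 in sTX and from 0.8 to 13.9 in ctr and passed no test.

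RANK ligand (Tnfsf11), best known as the signal for osteoclasts, was low everywhere, from 5.4 to 11 in aTX, from 0.2 to 4.0 in sTX and from 0.4 to 7.1 in ctr. It was called in aTX against sTX (log2 change 2.59, adjusted p = 0.0208), and the call was lost without sTX 3 (1.93) or sTX 5, with the fluidics run as a block (2.19, adjusted p = 0.183) and within the second run alone (adjusted p = 0.203). The second probe set was called in aTX against ctr instead (2.50, adjusted p = 0.0137). Its receptor Tnfrsf11a ran from 11.7 to 30.3 in aTX, from 7.3 to 13.3 in sTX and from 7.2 to 17.0 in ctr, with a log2 change of 0.76 in aTX against ctr (adjusted p = 0.0711). That change was called with 16 added to the signals (0.37, adjusted p = 0.0463), without aTX 4 (0.93, adjusted p = 0.0343) and without ctr 5 (0.92, adjusted p = 0.0371), and the difference between aTX and sTX was called with quantile scaling (0.93, adjusted p = 0.0271).

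Tnfrsf26, another receptor on the array, rose in acute grafts. Tnfrsf26 signals in replicates 1 to 5 were 65.2, 47, 42.7, 59.2 and 62.7 in aTX, 29.3, 19.2, 24.8, 10.5 and 16.3 in sTX and 11.9, 8.3, 11.3, 11.6 and 15.1 in ctr. Acute grafts lay above all other kidneys, and the syngeneic grafts spread from the control range upwards. Tnfrsf26 was 4.78-fold higher in aTX than in ctr (log2 change 2.26 ± 0.25 SE, adjusted p = 3.09e-07) and 2.90-fold higher than in sTX (adjusted p = 6.12e-05). In sTX against ctr the log2 change was 0.72 (adjusted p = 0.0565), and without sTX 4 and 5 it was 1.07 and was called (adjusted p = 0.00447), as it was without sTX 4 alone (0.93) or ctr 5 (0.82). The 3 remaining members were dim and passed no test with all arrays: Ngfr, the neurotrophin receptor, with 10.4 to 16.6 in aTX, 10.5 to 17.2 in sTX and 2.3 to 14.0 in ctr, Eda, a ligand of skin appendage development, with 1.6 to 9.2 in aTX, 1.3 to 13.4 in sTX and 1.5 to 13.5 in ctr, and Tnfrsf19 with 1.3 to 12.6 in aTX, 0.7 to 11.7 in sTX and 0.9 to 8.0 in ctr. Together with Cd40lg, Lta, Tnfrsf17, Tnfrsf25, Tnfrsf8, Tnfsf11 and Tnfsf4 they are the 10 members that never exceeded 24.3, for which a missing call says little. Without ctr 1 Ngfr was called higher in aTX (log2 change 1.19, adjusted p = 0.02) and in sTX (1.21, adjusted p = 0.0424) than in ctr.

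**Figure D3:**
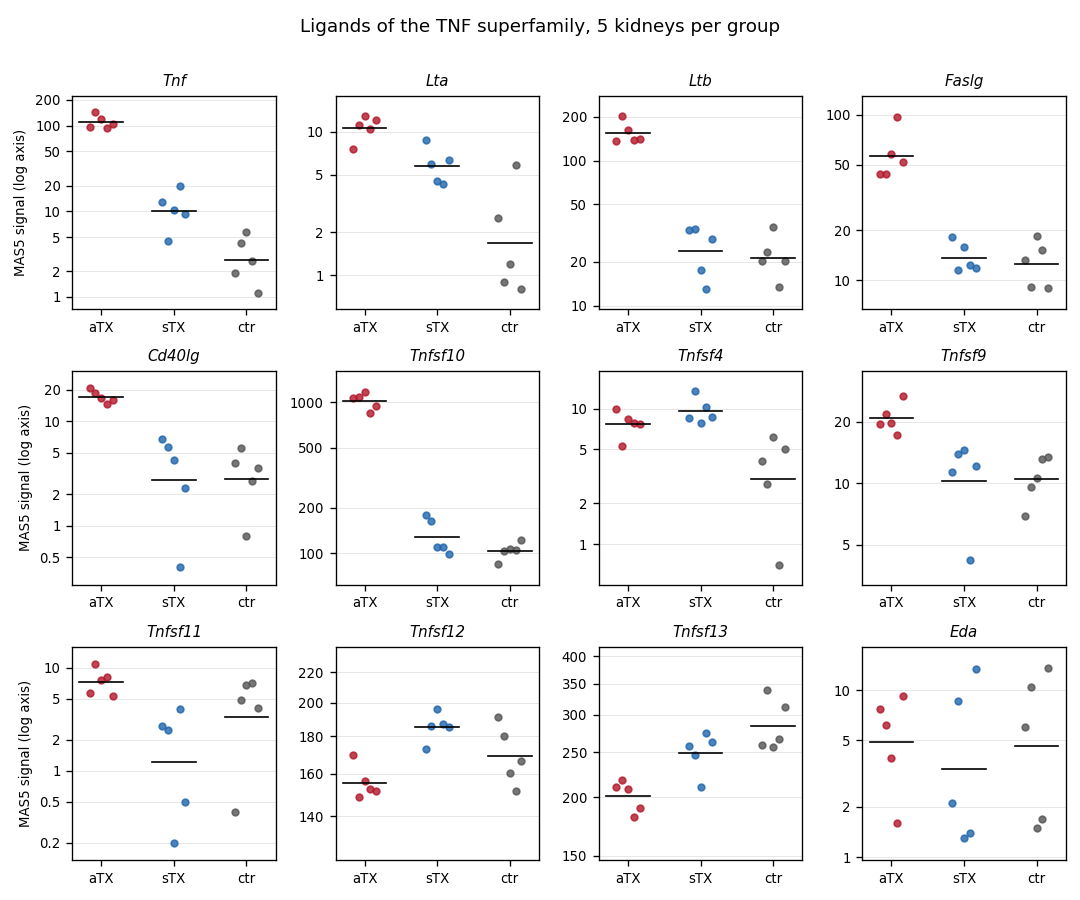
Signals of all 12 ligands on a log axis, with 1 point per kidney and a line at the geometric mean of each group (aTX, sTX and ctr from left to right, 5 kidneys each). For Tnf, Ltb, Faslg and Tnfsf10 every acute graft lies above all other kidneys, with Tnfsf10 at 843.0 to 1171.2, while Tnfsf13 is lowest in acute grafts and Eda shows no separation.

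Most genes of a list drawn up for signalling from these receptors were called higher in acute grafts, though not every listed gene serves them alone. Of 43 listed signalling genes (adaptors, kinases, caspases, NF-kappaB subunits and their inhibitors) 38 were measured, and 27 were higher and 3 lower in aTX than in ctr, which is 71.1% and 7.89%, with a median log2 change of 0.85, where 27.7% of all genes were higher and 27.7% lower. In sTX against ctr 12 were higher and 4 lower (31.6% and 10.5%, median 0.10), with 16.1% and 8.86% of all genes. In aTX against sTX 27 were higher and 2 lower (71.1% and 5.26%, median 0.78), with 19.8% and 28.4% of all genes. The medians of all genes were -0.03, 0.08 and -0.13 in these comparisons. The sTX counts depend on the setting, with 1 higher and 2 lower once the fluidics run was a block, 4 higher and 13 lower (median -0.10) with each array centred on its median and 8 higher and 4 lower without sTX 4 and 5. In aTX against sTX the counts without sTX 4 and 5 were 25 higher and 2 lower. Among signalling genes whose geometric mean reached 50 in the brighter group, Traf1, Birc3, Ripk3 and Ripk2 had the largest folds. Traf1, an adaptor of the TNF receptors that NF-kappaB itself induces, ran from 56.4 to 95.8 in aTX, from 6.3 to 15.4 in sTX and from 0.3 to 11.1 in ctr, a 22.1-fold rise in aTX over ctr (adjusted p = 1.11e-05). All Traf1 controls lay below the lowest array median, and with 16 added to the signals its log2 change was 2.13 in place of 4.47, below those of Ripk3 (3.56), Birc3 (3.42) and Ripk2 (2.50). Birc3, a ubiquitin ligase that restrains cell death, ran from 309.0 to 474.8 in aTX, from 37.6 to 64.2 in sTX and from 14.0 to 34.4 in ctr and was 17.7-fold higher in aTX than in ctr (adjusted p = 9.92e-13). Ripk3, the kinase of necroptosis, ran from 505.3 to 577.2 in aTX, from 50.8 to 100.4 in sTX and from 27.1 to 40.6 in ctr, 17.3-fold higher in aTX (adjusted p = 6.54e-14) and 2.17-fold higher in sTX (adjusted p = 3.74e-05) than in ctr. Ripk2, in the list but best known as a kinase downstream of intracellular pattern receptors, was 8.15-fold higher in aTX than in ctr (adjusted p = 9.41e-13).

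The few signalling genes that fell are named after their values were seen. In aTX against ctr they were Traf4, Cflar and Chuk, by 1.61-fold, 1.29-fold and 1.25-fold. In sTX against ctr they were Nfkbia, Cflar, Traf4 and Tnip1. Nfkbia, the inhibitor that holds NF-kappaB in the cytoplasm and is itself induced by it, ran from 673.4 to 748.7 in aTX, from 178.3 to 236.4 in sTX and from 483.6 to 714.3 in ctr. Syngeneic grafts lay apart from both other groups, 2.98-fold below ctr (adjusted p = 8.27e-10), and aTX was 3.48-fold above sTX (adjusted p = 8.59e-12). Cflar, the inhibitor of caspase activation at death receptors, ran from 115.4 to 148.6 in aTX, from 80.4 to 84.0 in sTX and from 153.2 to 202.3 in ctr. Its order was thus ctr, aTX, sTX from high to low, with no overlap between any 2 groups. In sTX it was 2.14-fold below ctr (adjusted p = 2.99e-08). Cflar and Traf1 have 2 probe sets each. For them, as for every listed gene, only the probe set with the highest mean log2 signal over all arrays was read. Nfkbia (log2 change -1.51, adjusted p = 3.26e-05) and Cflar (-0.98, adjusted p = 0.000865) were the 2 signalling genes called lower in sTX with the fluidics run as a block.

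**Figure D4:**
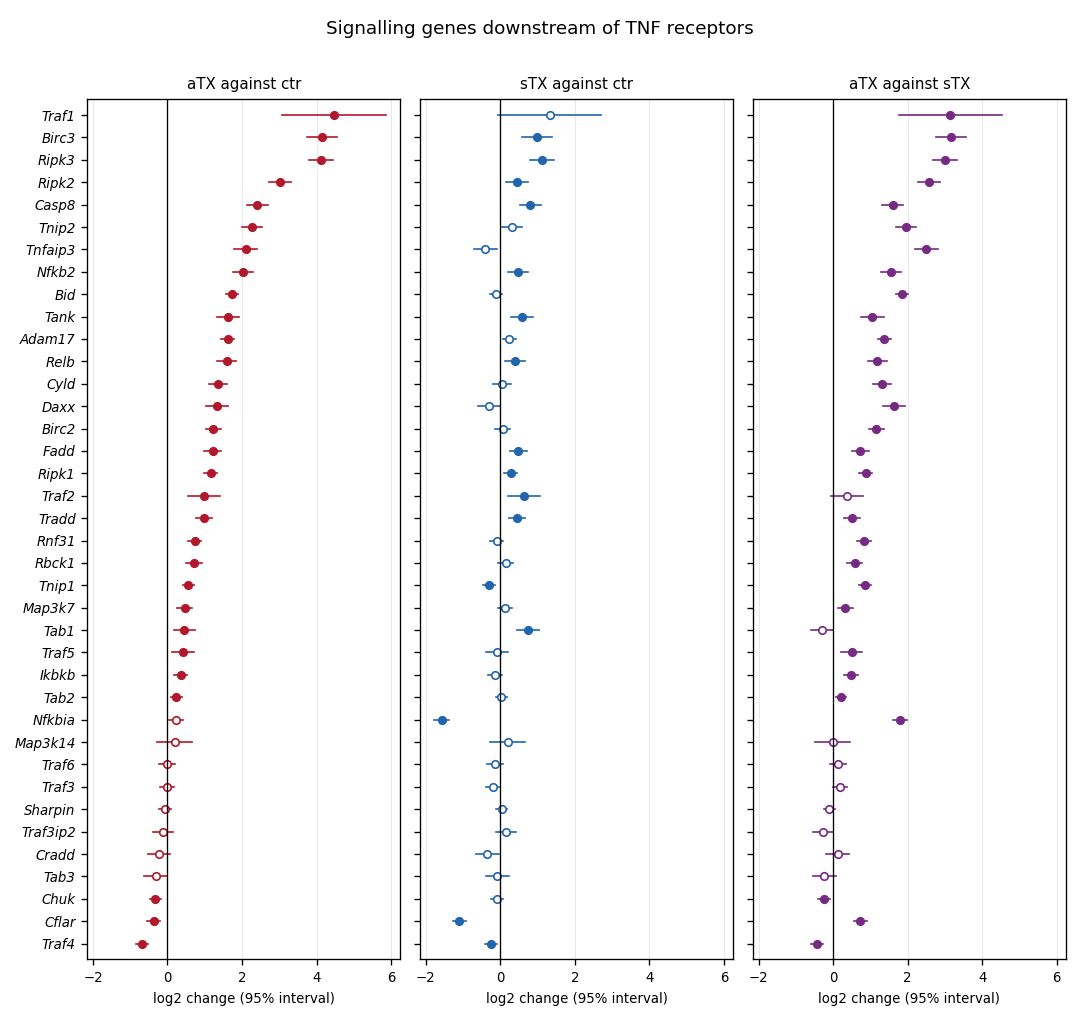
The log2 change of the 38 measured signalling genes in 3 comparisons, with its 95% interval as a line. Filled points passed an adjusted p below 0.05. In aTX against ctr 27 filled points lie right of 0, and in sTX against ctr Nfkbia (-1.57) and Cflar (-1.10) lie farthest to the left.

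Genes that TNF is known to induce were listed separately, and all 25 were measured. Birc3 and Nfkbia are in both lists. In aTX against ctr 16 were higher and 1, Ier3, was lower (64% and 4.0%, with 27.7% and 27.7% of all genes), with a median log2 change of 1.79. In sTX against ctr 8 were higher and 4 lower (Ier3, Junb, Nfkbia and Ptgs2), 32% and 16% with 16.1% and 8.86% of all genes, and a median of 0.04. In aTX against sTX 19 were higher and 0 lower, 76% and 0% with 19.8% and 28.4% of all genes, and a median of 1.83 (limma, adjusted p below 0.05). All genes had medians of -0.03, 0.08 and -0.13 in these 3 comparisons. With the fluidics run as a block the sTX counts were 1 higher and 3 lower. With each array centred on its median they were 5 higher and 5 lower (median -0.15). Without sTX 4 and 5 they were 7 higher and 3 lower, and in aTX against sTX 18 were higher and 0 lower. Irf1, a transcription factor of the interferon and TNF responses, ran from 2490 to 2974 in aTX, from 156.4 to 419.5 in sTX and from 65.6 to 177.2 in ctr and was 30.5-fold higher in aTX than in ctr (adjusted p = 1.65e-12). The macrophage chemokine Ccl2 was 17.3-fold higher (adjusted p = 1.95e-12) and Gch1, which makes the cofactor of nitric oxide synthase, 16.1-fold higher (adjusted p = 2.72e-11) in aTX than in ctr. Interferons and other cytokines induce many of these genes too.

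Markers of several cell types also differed between the groups. Over all genes 27.7% were higher and 27.7% lower in aTX than in ctr, and 16.1% and 8.86% in sTX than in ctr. All 13 measured T cell markers were higher in aTX than in ctr, and their summed signal was 2413.5 to 3839.3 in aTX, 274.9 to 442.3 in sTX and 181.9 to 281.4 in ctr. Of 11 macrophage and dendritic cell markers 10 were higher in aTX and 7 in sTX than in ctr, with sums of 5035.5 to 5543.7 in aTX, 1013.1 to 1470.7 in sTX and 561.4 to 681.7 in ctr. Of 9 NK cell markers 6 were higher in aTX than in ctr, with sums of 2640.7 to 4398.0 in aTX, 138.4 to 271.2 in sTX and 100.3 to 154.4 in ctr. That list includes Gzma, Gzmb and Prf1, which the paper reads as effectors of cytotoxic T cells, so its sum does not stand for NK cells alone. Ncr1, Ncr3 and Klrg1 of the list stayed below the lowest array median in all kidneys. All 6 measured neutrophil markers were higher in aTX than in ctr, with sums of 2772.9 to 3825.8 in aTX, 284.2 to 542.4 in sTX and 175.1 to 233.7 in ctr. In each of these 4 sums every acute graft lay above every other kidney. Of 8 measured B and plasma cell markers only 3 were higher in aTX than in ctr, and 4 stayed below the lowest array median in all kidneys. Their sums were 283.9 to 345.4 in aTX, 192.1 to 215.7 in sTX and 146.9 to 187.9 in ctr. Of 9 fibroblast and pericyte markers 8 were higher in aTX and 9 in sTX than in ctr, with sums of 4460.5 to 6515.7 in aTX, 6221.3 to 7482.7 in sTX and 2212.2 to 2616.8 in ctr. Of 14 proximal tubule markers 13 were lower in aTX than in ctr, with sums of 15964.4 to 21820.4 in aTX, 29380.2 to 35023.9 in sTX and 31240.0 to 44707.6 in ctr. Of 10 endothelial markers 9 were lower in aTX than in ctr, with sums of 1360.5 to 1481.0 in aTX, 2523.3 to 2958.3 in sTX and 2771.4 to 3498.2 in ctr. Of 14 thick limb and distal nephron markers 13 were lower in aTX than in ctr. Of 6 podocyte markers 5 were lower and 1 was higher in aTX than in ctr. No marker of these lists was at 0 in all controls, and the part of cell composition in the changes of the superfamily was not tested.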

How the data were processed

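RNA of 15 rat kidneys (5 aTX, 5 sTX, 5 ctr) was labelled with biotin and hybridized to Affymetrix Rat Genome 230 2.0 arrays. The authors deposited 1 signal intensity per probe set and array, condensed with MAS5 and scaled to a common mean. The mean is 100 on every array once 2% of probe sets are trimmed at each end. The paper's methods state a normalization to a higher arithmetic mean, so the deposited signals are not on the scale described there. Of 31099 probe sets 57 Affymetrix controls were set aside. Symbols came from the platform annotation (20826 probe sets with 1 symbol, 436 with several, 9780 unnamed here).

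Signals were taken to log2, with 54 signals of 0 set to 0.05 and no filter on low values. Groups were compared with limma 3.58.1 under R 4.3.3 (functions lmFit, contrasts.fit and eBayes, intensity trend on) in 1 fit of all arrays, with Benjamini-Hochberg adjustment over 31042 probe sets and calls at an adjusted p below 0.05. Folds are ratios of geometric means, and errors are standard errors of the fit unless named as SD. Tables and plots used Python 3.11.15, pandas 2.3.3, numpy 2.4.6 and matplotlib 3.10.9. The fit was tested on simulated data with the spread of these arrays.

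Fluidics runs were inferred from the half-day of the hybridization entry in the instrument records. Alternatives were other scalings, an offset of 16, a mean signal of at least 50, the methods' t-test, the run as a block or single runs, the replicate number as a block, other probe sets and leaving out arrays. Deviations of same-numbered arrays of different groups had correlations from -0.02 to 0.03 (15 pairs). These were taken over all probe sets without a filter on level, many of them near background, so they could miss a shared donor. The numbers were not taken to pair kidneys in the main fit.

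Values of every array are given for called members whose geometric mean reached 50 in the brighter group (up to 20, 8 and 8 by size of change in aTX against ctr, sTX against ctr and aTX against sTX), and up to 4 genes are named from each signalling list by the same level. The members, lists and this rule were chosen with earlier results of these data known. With 5 arrays a group, their number limits the precision.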

Additional observations from a re-analysis of the deposited data

Results flagged for a closer look

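Single arrays stood apart from the other 4 of their group in 6 of 90 combinations of member and group, by a gap to the nearest array of more than 0.71 of the group's range. Chance alone gives about 1 such gap in 20 groups. In acute grafts Tnfrsf12a was high in aTX 5 (438.7, the others 344.7 to 364.9, gap 0.764 of the range) and Tnfrsf17 low in aTX 2 (1.3, the others 8.8 to 15.2, gap 0.778). In syngeneic grafts Tnfrsf17 was low in sTX 1 (2.0, the others 12.3 to 15.5, gap 0.887). Tnfrsf11a was low in sTX 4 (7.3, the others 11.9 to 13.3, gap 0.815), as was Tnfsf9 (4.2, the others 11.3 to 14.5, gap 0.799). In controls Tnfsf11 was low in ctr 1 (0.4, the others 4.1 to 7.1, gap 0.809).

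The herpesvirus entry mediator Tnfrsf14 was called in opposite directions in the 2 kinds of graft, higher in aTX and lower in sTX than in ctr. The direct log2 difference between aTX and sTX was 1.97 (limma, adjusted p = 4.84e-10), but the rise in aTX alone could give such a call. The opposite direction rests on sTX against ctr (log2 change -0.53). That call was lost with the fluidics run as a block and with the methods' t-test after Benjamini-Hochberg adjustment.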

How the results depend on the processing

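Of the calls of single members 0 changed direction under any alternative. The number of members higher in aTX than in ctr was 18 and stayed between 16 and 19 in all alternatives that tested all 30 genes, except with the methods' t-test at an unadjusted p below 0.001, which gave 14. A fit without probe sets whose mean signal was under 50 kept 13 members, of which 9 were higher in aTX than in ctr, 5 in sTX than in ctr and 7 in aTX than in sTX. In sTX against ctr, where 10 members were higher, the methods' t-test gave 5 after Benjamini-Hochberg adjustment and 1 at an unadjusted p below 0.001, and the fluidics run as a block gave 0. In aTX against sTX the 3 lower calls became 0 with median centring, 0 with the run as a block, 0 within the second run alone, 1 with the t-test at an unadjusted p below 0.001 and 1 without sTX 4 and 5. The cause of these differences was not tested, apart from the smaller number of genes or arrays that some of these alternatives hold. Once the run was a block, aTX against ctr kept 19 of 21 calls (not Tnfsf4 and Tnfsf9), sTX against ctr kept 2 of 13 and aTX against sTX kept 13 of 18 (not Tnfrsf21, Tnfsf11, Tnfsf12, Tnfsf13 and Tnfsf9). With the replicate block 18 members were higher in aTX than in ctr, 9 in sTX than in ctr and 15 in aTX than in sTX, and Ltbr in sTX against ctr was the only call lost, while Tnfrsf25 in aTX against ctr was gained (adjusted p = 0.0499). The shared numbers come only from the titles. Leaving out single arrays gave 16 to 19 higher calls in aTX against ctr, 7 to 10 in sTX against ctr and 14 to 16 in aTX against sTX. The precision is limited by 5 kidneys per group, and for the 10 dim members by signals below the array medians.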
